A study of Homo sapiens with 12 samples.

Results

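Aminoacyl-tRNA synthetases are the enzymes that load each amino acid onto its own tRNA. The 36 genes described here were chosen by name. They are 20 genes of cytosolic enzymes, whose symbols carry no final 2 and which include FARSA and FARSB, the subunits of a single enzyme, and 16 genes of mitochondrial enzymes, whose symbols end in 2. All 36 were found by symbol among the 34227 genes of the deposited tables. The libraries were made from RNA of SCC15 and of SCC25 cells, wild-type oral squamous cell carcinoma lines, after 24 h with squamocin or with DMSO, the solvent of squamocin. The labels call the treatment ACGs, for annonaceous acetogenins, the plant compounds to which squamocin belongs. Each treatment had 3 libraries in each cell line, 12 in all, and nothing in the labels says that they came from separate cultures, so the p-values below measure the spread between libraries, which may be technical. Each cell line is a single established line.

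All of these enzymes are encoded in the nucleus. The cytosolic enzymes serve the ribosomes of the cytoplasm, and several of them sit in a multi-synthetase complex held together by the scaffold proteins AIMP1, AIMP2 and EEF1E1. Mitochondria import a separate set of enzymes, which charge the tRNAs of the mitochondrial genome. KARS and GARS make the lysine and glycine enzymes of both compartments from a single gene, and QARS has no mitochondrial counterpart, since mitochondria first charge their glutamine tRNA with glutamate through EARS2 and then convert the amino acid. When cells sense uncharged tRNA or stress of the endoplasmic reticulum, phosphorylation of the initiation factor eIF2 raises translation of the transcription factor ATF4, and many genes of cytosolic synthetases are textbook targets of ATF4 through the C/EBP-ATF response element.

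Promoter sequence is shown for the members that hold the core of this element, because it is the known link between ATF4 and this family. Promoters from RefSeq (GRCh38.p14, from 250 bases before to 50 bases after the start of transcription) were matched to 30 of the 36 members. The members not matched were DARS, LARS, VARS, YARS, AARS2 and VARS2. The core TGATGNAA, searched on both strands with N for any base, was present in 6 of the 16 matched cytosolic promoters (37.5%) and in 1 of the 14 matched mitochondrial promoters (7.14%), beside 3.62% of all 35116 promoters of the same length. Each line gives 60 bases, 5′ to 3′ on the strand of the gene, with the core in capitals. The core lies before the start or across it, except in NARS and TARS, where it lies just after the start.
AARS, chr16:70289660-70289719, minus strand: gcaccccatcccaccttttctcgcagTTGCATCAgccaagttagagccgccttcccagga
CARS, chr11:3057394-3057453, minus strand: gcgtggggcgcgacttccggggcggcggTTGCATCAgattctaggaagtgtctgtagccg
IARS, chr9:92293677-92293736, minus strand: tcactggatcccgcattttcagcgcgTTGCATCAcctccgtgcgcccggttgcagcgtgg
MARS, chr12:57488038-57488097, plus strand: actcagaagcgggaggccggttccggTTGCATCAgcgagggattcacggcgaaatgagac
NARS, chr18:57621807-57621866, minus strand: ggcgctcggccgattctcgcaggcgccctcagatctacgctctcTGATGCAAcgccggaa
TARS, chr5:33440935-33440994, plus strand: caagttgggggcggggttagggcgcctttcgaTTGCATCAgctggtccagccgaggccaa
YARS2, chr12:32756061-32756120, minus strand: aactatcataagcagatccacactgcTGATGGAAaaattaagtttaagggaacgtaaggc

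The promoters of GARS and SARS, which encode the glycine and serine enzymes, held no match to these letters within the 300 bases searched. Other motifs were searched in the same way. The ETS core CCGGAAG was in 8 cytosolic promoters (50%) and 6 mitochondrial promoters (42.9%), beside 10.3% of all promoters. The NRF1 core GCGCANGC was in 5 of each class (31.2% and 35.7%, beside 12% of all promoters). The E-box CACGTG was in the promoter of IARS (6.25%) and in those of CARS2, EARS2 and MARS2 (21.4%), beside 7.26% of all promoters. Matches of different motifs overlapped in 0 members. A match describes the letters of a window and is not a bound site.

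The reads assigned to genes, recovered from the deposited values, ranged from 16665563 to 22748845 per library. A library of squamocin-treated SCC15 cells, replicate 3, stood apart from its group. Its counts differed from those of replicates 1 and 2 with a chi-square per degree of freedom of 64.1 and 56.8, against 1.67 to 9.95 for the other 10 pairs of replicates, and results are given with and without it where it changed a call. Of 7 squamous epithelial markers, 5 in SCC15 and 7 in SCC25 had a mean of at least 10 normalized counts, and KRT5 and DSG3 lay under it in SCC15. Their summed level went from between 110673 and 116783 with DMSO to between 205503 and 356624 with squamocin in SCC15, and from between 22418 and 22608 to between 34397 and 36306 in SCC25. In SCC15 this sum was mostly KRT17 (means of 112298 with DMSO and 260258 with squamocin), and the means of KRT5, KRT6A, TP63, DSG3 and CDH1 were lower with squamocin. Summed fibroblast markers (5 genes) went from between 694 and 772 to between 471 and 482 in SCC15, and from between 761 and 805 to between 1065 and 1213 in SCC25, where COL1A1 had means of 576 and 938. Of the leukocyte markers, CD14 went from a mean of 504 to 379 in SCC15 and from 351 to 4.81 in SCC25, CD3E from 17.7 to 10.3 and from 22.8 to 18.5, and PTPRC from 3.05 to 0.773 in SCC15. Summed endothelial markers (3 genes) went from between 158 and 178 to between 66.1 and 77.1 in SCC15, and from between 231 and 294 to between 19.8 and 36.6 in SCC25. CDH5 in SCC15 and PTPRC in SCC25 were not listed. The part of these markers in the results was not tested, and in RNA of whole cultures fewer cells and less RNA per cell cannot be told apart.

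The values below are normalized counts, that is reads divided by the size factor that the authors had set for each library within a cell line. The choice of scaling matters here. On the authors' scale the median log2 fold change of all genes tested was 0.012 in SCC15 and -0.015 in SCC25, and with every library scaled to the same total it was -0.48 and -0.22. A direction on the authors' scale is therefore relative to the bulk of genes, and the members whose direction turned with equal totals were DARS, NARS, RARS, FARS2, RARS2, SARS2, WARS2 and YARS2 in SCC15 and DARS, LARS, RARS, TARS, CARS2, RARS2 and YARS2 in SCC25.

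With DMSO alone, transcripts of the cytosolic enzymes were the more abundant class. Levels were compared between genes as RPKM, which are reads scaled to the length of the canonical transcript and to the depth of the library. Reads were counted per gene, so ranks between genes depend on this choice of length. In the DMSO libraries of SCC15 the median over the 20 cytosolic members was 58.0, with FARSB lowest at 7.07 and WARS highest at 333, and the median over the 16 mitochondrial members was 9.03, from 1.17 for SARS2 to 63.0 for IARS2. In SCC25 the medians were 53.7 and 7.84, with cytosolic levels from 13.8 for FARSB to 110.1 for SARS and mitochondrial levels from 2.74 for SARS2 to 45.1 for IARS2. IARS2, the mitochondrial isoleucine enzyme, was the 1 mitochondrial member above the median cytosolic level in SCC15, and 0 were above it in SCC25. Per amino acid, the transcript of the cytosolic enzyme had the higher level in 15 of 16 pairs in SCC15 and in 16 of 16 in SCC25. The exception in SCC15 was isoleucine, with 32.6 for IARS and 63.0 for IARS2. CARS and CARS2, the cysteine enzymes, were next to equal in SCC15 at 26.4 and 26.2.

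**Figure D1:**
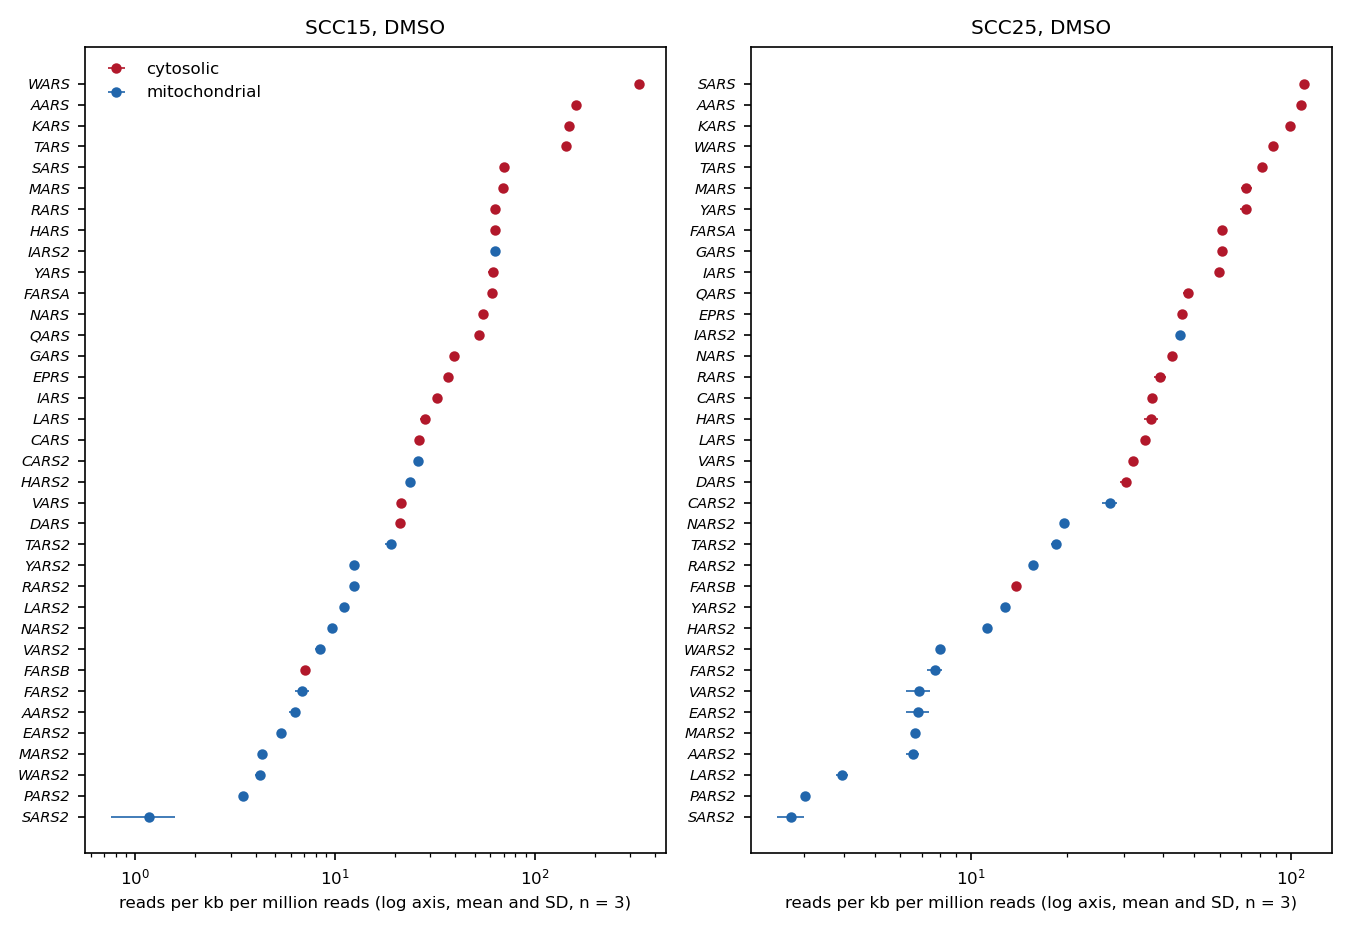
Levels of the 36 synthetases in DMSO libraries of SCC15 (left) and SCC25 (right), in RPKM (reads scaled by transcript length and library depth) on a log axis, as mean and SD of 3 libraries. Cytosolic members (red) lie mostly above mitochondrial members (blue), with IARS2 as the highest mitochondrial member in both lines.

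With squamocin, most cytosolic members rose in SCC15 on the authors' scale and those in SCC25 divided. More mitochondrial members were called lower than higher in SCC25, while the mitochondrial calls in SCC15 depended on single libraries. In SCC15, 15 of the 20 cytosolic members were called higher with squamocin, 1 was lower and 4 were not called, by limma at an adjusted p under 0.05, beside 30.9% of all 15902 genes tested called higher and 30.0% called lower. In SCC25, 11 cytosolic members were higher and 6 lower, beside 38.3% and 38.5% of 16539 genes. Of the 16 mitochondrial members, 3 were called higher and 6 lower in SCC15, and in SCC25 the calls were 2 and 10. edgeR on the recovered reads gave the same calls for the 36 members, beside 31.9% of all genes higher and 29.9% lower in SCC15 and 38.8% and 38.6% in SCC25. Without overlap between treatments, 15 cytosolic members lay above and 1 below DMSO in SCC15, with 3 mitochondrial members above and 7 below, beside 35.7% and 34.9% of genes. In SCC25, 11 cytosolic members lay above and 7 below, with 3 mitochondrial members above and 11 below, beside 39.4% and 39.6%. The median log2 fold change of the cytosolic members was 0.59 in SCC15 and 0.15 in SCC25, and that of the mitochondrial members was -0.14 and -0.42. With equal library totals SCC15 had 8 cytosolic members higher and 5 lower and 0 mitochondrial members higher and 10 lower, beside 14.8% and 50.5% of all genes. On that scale SCC25 had 7 cytosolic members higher and 9 lower and 2 mitochondrial members higher and 13 lower, beside 30.4% and 47.4%. Without squamocin replicate 3, SCC15 had 15 cytosolic members higher and 4 lower, and 3 mitochondrial members higher and 8 lower. In that fit 38% of all genes were called higher and 37.6% lower. The mitochondrial counts in SCC15 depended on single libraries, with 4 higher and 4 lower without squamocin replicate 2, beside 28.4% and 28.2% of all genes. They were 2 and 3 without DMSO replicate 1 (beside 25.1% and 23%), and 3 and 2 without DMSO replicate 2 (25.1% and 22.9%). Without DMSO replicate 3 they were 1 and 2 (24.8% and 22.8%). The share of all genes called thus moved with the library left out as well.

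**Figure D2:**
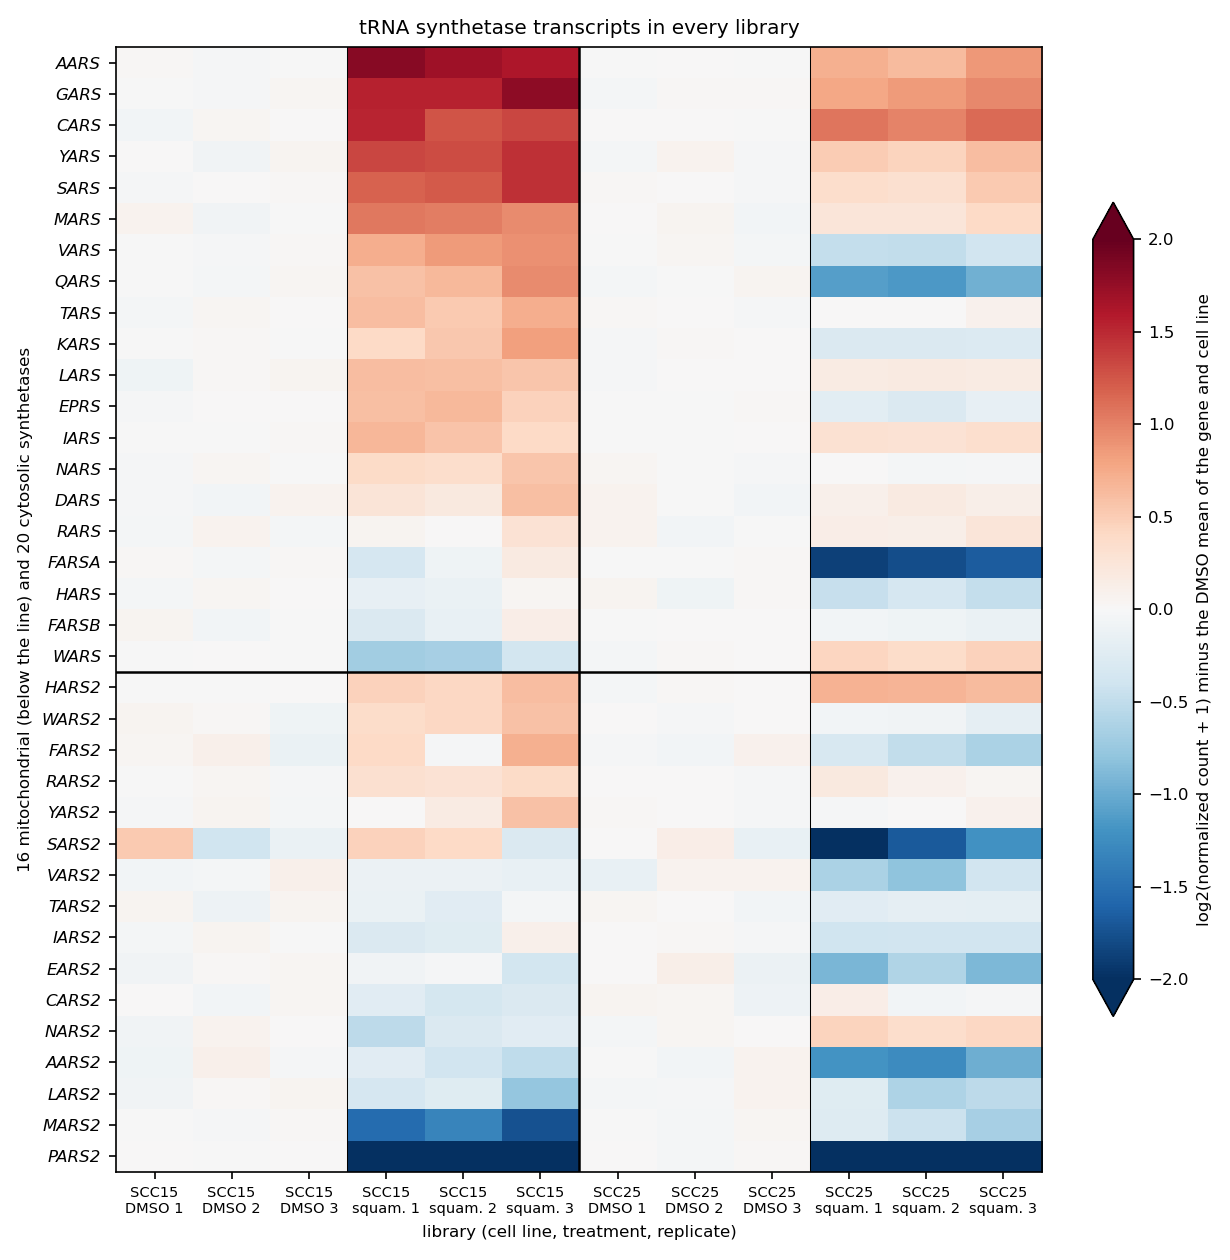
Each row is a synthetase gene and each column a library. Colour gives log2(normalized count + 1) minus the DMSO mean of the gene in its cell line, capped at 2 in both directions. The upper block of 20 cytosolic genes is mostly red with squamocin in SCC15 and mixed in SCC25, and the lower block of 16 mitochondrial genes is mostly blue in SCC25 and mixed in SCC15, with PARS2 darkest in both lines.

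Within a library, the distance between the classes is nearly free of the scaling of libraries. Each gene, as log2(normalized count + 1), was set relative to its DMSO mean, and the median over the mitochondrial members was subtracted from the median over the cytosolic members. This difference was 0.73, 0.76 and 0.85 on the log2 scale in the squamocin libraries of SCC15, against -0.030 to 0.00071 in the DMSO libraries. In SCC25 it was 0.37, 0.55 and 0.52 with squamocin and from -0.012 to -0.0036 with DMSO. In both cell lines the libraries of the treatments did not overlap. The DMSO values lie near 0 because each gene was set relative to its own DMSO mean. Differences between other sets of genes were not computed, so separation alone does not set these classes apart.

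**Figure D3:**
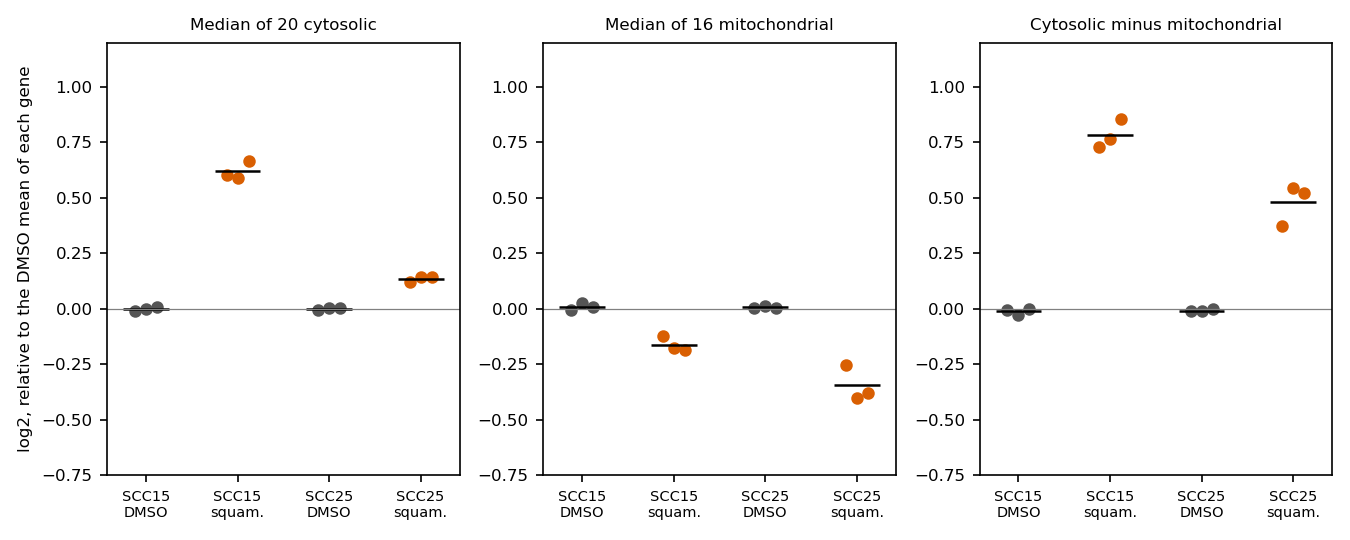
Points are libraries and bars are group means of the median over the 20 cytosolic members (left), the 16 mitochondrial members (middle) and their difference (right), on the log2 scale relative to the DMSO mean of each gene. Squamocin libraries (orange) lie above 0 in the left panel, below 0 in the middle panel and above 0 in the right panel in both cell lines, on the authors' scale, and with equal library totals the cytosolic median fold change in SCC25 was -0.057.

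AARS, GARS and CARS, which charge alanine, glycine and cysteine, had the largest rises of the family. AARS (ENSG00000090861, GRCh38 chr16:70252295-70289543) held 8689, 8454 and 8533 normalized counts in the DMSO libraries of SCC15 and 30174, 27634 and 26255 in the squamocin libraries. AARS in SCC25 went from 6737, 6839 and 6784 with DMSO to 11055, 10485 and 12359 with squamocin. Every squamocin library was above every DMSO library in both lines, and the log2 fold changes of AARS were 1.71 (SE 0.10, adjusted p = 2.43e-05) in SCC15 and 0.73 (SE 0.053, adjusted p = 5.6e-08) in SCC25. GARS (ENSG00000106105, chr7:30594681-30634033) held 1475, 1459 and 1528 with DMSO and 4342, 4345 and 5135 with squamocin in SCC15. GARS in SCC25 held 2638, 2753 and 2777 with DMSO and 4643, 4931 and 5305 with squamocin. The libraries again did not overlap, and the log2 fold changes were 1.63 (SE 0.095, adjusted p = 2.35e-05) and 0.86 (SE 0.051, adjusted p = 7.86e-09). CARS (ENSG00000110619, chr11:3000922-3057613) held 1084, 1151 and 1130.5 with DMSO and 3243, 2694 and 2837 with squamocin in SCC15. CARS in SCC25 held 1858, 1844 and 1827 with DMSO and 3865, 3654 and 4059 with squamocin. The log2 fold changes of CARS were 1.38 (SE 0.095, adjusted p = 4.1e-05) and 1.06 (SE 0.047, adjusted p = 5.48e-10), the highest of the 36 members in SCC25. All of these rises remained calls with equal library totals, at log2 fold changes of 1.21, 1.13 and 0.88 in SCC15 and 0.52, 0.66 and 0.86 in SCC25 for AARS, GARS and CARS.

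Further cytosolic enzymes rose in both lines. YARS, which charges tyrosine, had log2 fold changes of 1.37 (SE 0.087, adjusted p = 3.17e-05) in SCC15 and 0.53 (SE 0.051, adjusted p = 9.48e-07) in SCC25, and SARS, which charges serine, 1.29 (SE 0.098, adjusted p = 5.87e-05) and 0.40 (SE 0.052, adjusted p = 1.48e-05). MARS, which charges both initiator and elongator methionine tRNA, had 1.01 (SE 0.084, adjusted p = 8.74e-05) and 0.29 (SE 0.051, adjusted p = 1.74e-04). MARS shares 355 exonic bases with DDIT3 on the opposite strand, and the sources used here do not say whether the counting used strand, so reads in these bases cannot be told apart. DDIT3 itself had log2 fold changes of 4.30 in SCC15 and 2.63 in SCC25. IARS (0.55 and 0.31, isoleucine) and LARS (0.59 and 0.17, leucine) were also called higher in both lines, and LARS turned to -0.042 in SCC25 with equal totals. DARS, which charges aspartate, held 1003, 983 and 1062 with DMSO and 1214, 1168 and 1540.4 with squamocin in SCC15. In SCC25 DARS held 1808, 1714 and 1657 with DMSO and 1861, 1955 and 1881 with squamocin. Its small rises (log2 fold change 0.35, SE 0.12, adjusted p = 0.0346, and 0.14, SE 0.049, adjusted p = 0.0213) turned to -0.14 and -0.070 with equal totals, and the SCC15 call was lost without any single DMSO library (adjusted p of 0.0746 to 0.113). The SCC25 call of DARS was lost without squamocin replicate 2, DMSO replicate 2 or DMSO replicate 3 (adjusted p of 0.0632 to 0.114). With equal totals IARS, LARS and TARS were not called in SCC15, nor MARS in SCC25, at values of 0.049, 0.091, 0.13 and 0.086. Altogether 9 cytosolic members were higher in both lines, beside 22.1% of the 14454 genes tested in both, and 0 were lower in both, beside 18.6%.

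Some cytosolic enzymes were called in a single line. NARS, for asparagine, held 2306, 2409.9 and 2334 with DMSO and 3061, 2989 and 3465 with squamocin in SCC15, a log2 fold change of 0.43 (SE 0.089, adjusted p = 0.00448) that turned to -0.068 with equal totals. In SCC25 the NARS libraries overlapped, with 2192, 2135 and 2108 with DMSO and 2165, 2095 and 2120.5 with squamocin. TARS, for threonine, was called higher in SCC15 (0.62, SE 0.094, adjusted p = 0.00108) and not in SCC25 (0.038, and -0.17 with equal totals). RARS, for arginine, was not called in SCC15 (0.12) and was higher in SCC25 (0.16, SE 0.055, adjusted p = 0.0158), and both values were below 0 with equal totals, at -0.38 and -0.045. The SCC25 call of RARS was lost without DMSO replicate 2 (adjusted p = 0.0807) or DMSO replicate 3 (adjusted p = 0.0565).

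FARSA and FARSB, which encode the alpha and beta subunits of the phenylalanine enzyme, parted in SCC25. FARSA (ENSG00000179115, chr19:12922479-12934037) held 2006, 2016 and 2057 with DMSO in SCC25 and 554, 592 and 641 with squamocin. Its log2 fold change of -1.77 (SE 0.060, adjusted p = 5.39e-11) was the lowest of the cytosolic members. FARSB in SCC25 was at -0.094 (SE 0.046, adjusted p = 0.0774) and was not called. In SCC15 the FARSA libraries overlapped, with 1734, 1665 and 1746 with DMSO and 1357, 1623 and 1947 with squamocin. FARSA was at -0.078 (adjusted p = 0.631) and FARSB at -0.10 (adjusted p = 0.49) in that line, and without squamocin replicate 3 both were called lower, at -0.21 (adjusted p = 0.00486) and -0.21 (adjusted p = 0.00699). With equal totals both were called lower in SCC15, at -0.58 and -0.60, and FARSB in SCC25 at -0.30.

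A group of cytosolic enzymes moved in opposite directions in the 2 cell lines. QARS, EPRS, KARS and VARS rose in SCC15 but fell in SCC25, beside 5.44% of the genes tested in both lines, and WARS fell in SCC15 but rose in SCC25, beside 4.66%. QARS (ENSG00000172053, chr3:49095932-49105135), the glutamine enzyme, held 1989, 1959 and 2064 with DMSO and 3000.0, 3147 and 3863 with squamocin in SCC15. QARS in SCC25 held 2069.6, 2122 and 2207 with DMSO and 996, 966 and 1090.2 with squamocin. The log2 fold changes were 0.73 (SE 0.11, adjusted p = 0.00114) and -1.07 (SE 0.056, adjusted p = 2.6e-09), and each line's libraries were apart. VARS (ENSG00000204394, chr6:31777518-31795953), the valine enzyme, held 1357, 1335 and 1387 with DMSO and 2239.6, 2458 and 2561 with squamocin in SCC15. VARS in SCC25 held 2400.0, 2472 and 2348 with DMSO and 1736, 1719 and 1837 with squamocin. The log2 fold changes of VARS were 0.83 (SE 0.084, adjusted p = 1.99e-04) and -0.45 (SE 0.046, adjusted p = 1.7e-06), and both QARS and VARS kept their calls in both lines with equal totals.

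The opposite moves of EPRS and KARS were smaller. EPRS, which carries the glutamate and proline activities in a single chain, held 2739, 2801 and 2779.5 with DMSO and 4188, 4328 and 3811 with squamocin in SCC15. EPRS in SCC25 held 4011, 4029 and 4122 with DMSO and 3518, 3302 and 3629 with squamocin. EPRS thus changed by 0.57 (SE 0.085, adjusted p = 0.00105) and -0.22 (SE 0.044, adjusted p = 6.01e-04) on the log2 scale. KARS, the lysine enzyme of both compartments, held 4568, 4662 and 4541 with DMSO and 6074, 6692 and 8136 with squamocin in SCC15. KARS in SCC25 held 3579, 3674 and 3645 with DMSO and 2965, 2968 and 3008 with squamocin. KARS thus changed by 0.59 (SE 0.12, adjusted p = 0.0041) and -0.29 (SE 0.039, adjusted p = 2.1e-05) on the log2 scale. With equal totals the SCC15 values of EPRS and KARS fell to 0.067 (adjusted p = 0.65) and 0.093 (adjusted p = 0.317) and were no longer called, and the SCC25 values stayed called at -0.43 and -0.49.

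WARS (ENSG00000140105, chr14:100333788-100376805), the tryptophan enzyme, is also known as a gene induced by interferon-gamma. It held 13615, 13721 and 13553 with DMSO and 8413, 8558 and 10524 with squamocin in SCC15. WARS in SCC25 held 4126, 4318 and 4275 with DMSO and 5713, 5473 and 5839 with squamocin. It was thus the most abundant synthetase per length in SCC15 with DMSO, at 333 RPKM, and the single cytosolic member called lower there on the authors' scale (log2 fold change -0.58, SE 0.11, adjusted p = 0.00367), while in SCC25 it rose (0.42, SE 0.041, adjusted p = 9.64e-07). Both calls held with equal totals. Other interferon-gamma response genes varied in direction. GBP1 (-0.34 in SCC15, adjusted p = 0.0596, and 0.63 in SCC25, adjusted p = 7.33e-08) and CXCL10 (-0.58, adjusted p = 0.0632, and 1.02, adjusted p = 2.07e-05) had the signs of WARS, and with equal totals both were called lower in SCC15. GBP2 had the opposite signs in both lines (0.36, adjusted p = 0.0325, and -0.87, adjusted p = 7.31e-09). IRF1, a transcription factor of that response, rose in both lines (log2 fold changes 2.32 and 2.86), and IDO1, an enzyme that degrades tryptophan, fell in SCC25 (-5.78, adjusted p = 1.46e-09) and was not tested in SCC15. Of IRF1, GBP1, GBP2, CXCL10 and IDO1, 2 of the 4 tested were higher and 0 lower in SCC15 (IRF1, and GBP2, which turned to -0.14 with equal totals), beside 30.9% and 30.0% of all genes. In SCC25, 3 were higher and 2 lower of 5, beside 38.3% and 38.5%.

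**Figure D4:**
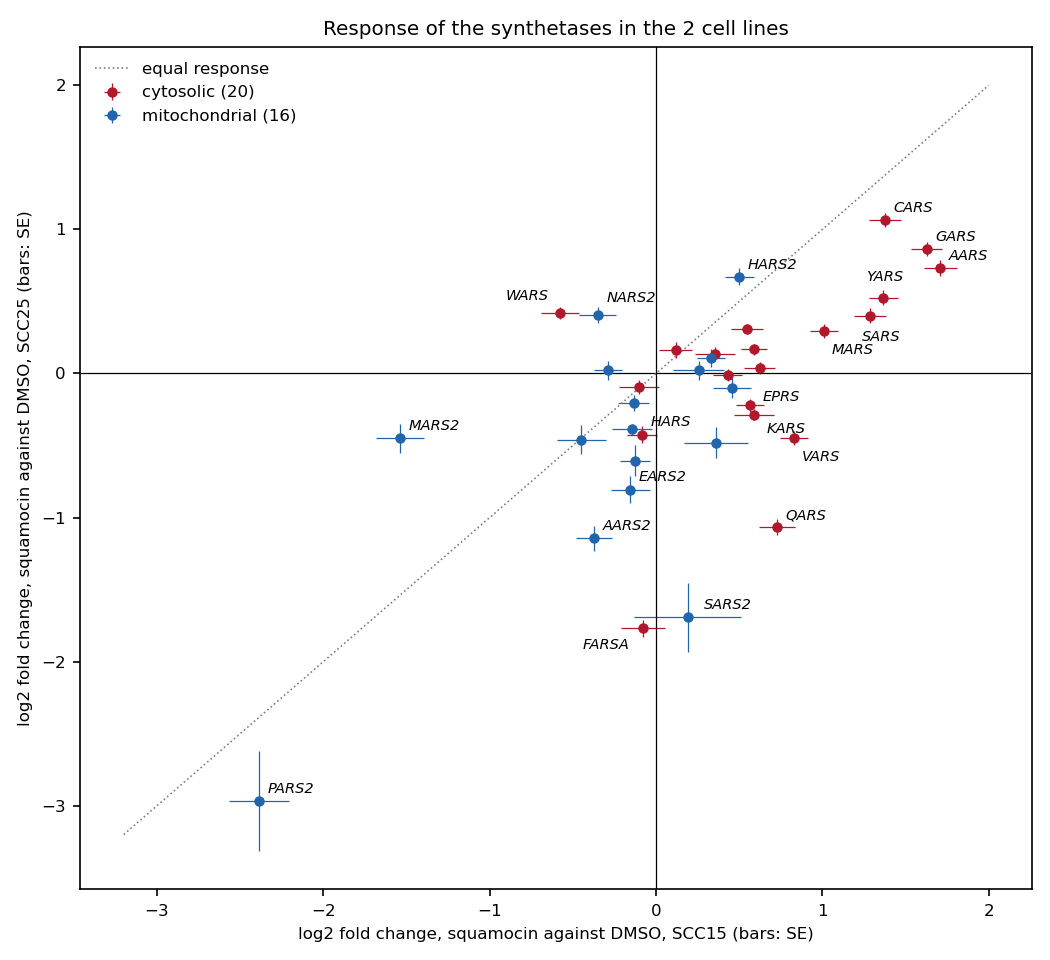
Log2 fold change of squamocin against DMSO for the 36 synthetases in SCC15 (horizontal) and SCC25 (vertical), with bars for the SE and a dotted line for equal response. CARS, GARS and AARS lie at the upper right, PARS2 at the lower left, and QARS, VARS, KARS and EPRS lie right of and below 0.

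HARS and HARS2, the cytosolic and mitochondrial histidine enzymes, start head to head on chromosome 5. The 84 bases between their RefSeq starts, chr5:140691371-140691454 on the plus strand of GRCh38.p14, are shown because both genes are read outward from this stretch. The capitals mark 2 matches to the ETS core, the first on the minus strand.
HARS-HARS2: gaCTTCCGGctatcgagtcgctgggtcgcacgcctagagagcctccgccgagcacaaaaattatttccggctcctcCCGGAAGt
The neighbours did not respond alike. HARS held 1859, 1949 and 1909 with DMSO and 1696, 1741 and 1963 with squamocin in SCC15, where its libraries overlapped. HARS in SCC25 held 1357, 1233 and 1327 with DMSO and 947, 1037 and 933 with squamocin. Its log2 fold changes were -0.085 (SE 0.088, adjusted p = 0.425) and -0.43 (SE 0.060, adjusted p = 2.95e-05), and without squamocin replicate 3 the SCC15 value was -0.15 (adjusted p = 0.00824). HARS2 held 907, 908 and 917 with DMSO and 1253, 1215 and 1405 with squamocin in SCC15. HARS2 in SCC25 held 492, 513 and 509.9 with DMSO and 817, 811 and 784 with squamocin. It rose in both lines, by log2 fold changes of 0.50 (SE 0.087, adjusted p = 0.00206) and 0.67 (SE 0.059, adjusted p = 3.6e-07), and was the single mitochondrial member to do so, but with equal totals the SCC15 value was 0.0023. HARS and HARS2 share 108 exonic bases on opposite strands, where reads cannot be told apart without strand. The log2 ratio of HARS to HARS2 fell from 1.03, 1.10 and 1.06 with DMSO to 0.44, 0.52 and 0.48 with squamocin in SCC15, and from 1.46, 1.26 and 1.38 to 0.21, 0.35 and 0.25 in SCC25.

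Among the mitochondrial enzymes PARS2 fell most. PARS2 (ENSG00000162396, chr1:54756898-54764514), which charges mitochondrial proline tRNA, held 127, 126 and 128 with DMSO and 25.5, 19.4 and 26.1 with squamocin in SCC15. PARS2 in SCC25 held 131, 127 and 132 with DMSO and 7.63, 28.1 and 17.8 with squamocin, where the lowest library had 6 reads. Its log2 fold changes, on the scale of the count plus 1, were -2.39 (SE 0.18, adjusted p = 5.75e-05) and -2.97 (SE 0.35, adjusted p = 5.3e-06), the lowest of the 36 members in both lines. MARS2 (ENSG00000247626, chr2:197705369-197708387), for mitochondrial methionine, held 201, 198 and 206 with DMSO and 68.4, 79.8 and 59.7 with squamocin in SCC15. MARS2 in SCC25 held 367, 361 and 379 with DMSO and 308, 275 and 233 with squamocin. The fall of MARS2 was thus larger in SCC15 (-1.54, SE 0.145, adjusted p = 1.42e-04) than in SCC25 (-0.45, SE 0.10, adjusted p = 0.00134). AARS2, for mitochondrial alanine, fell more in SCC25. It held 443, 501 and 462 with DMSO and 399, 360.2 and 329.7 with squamocin in SCC15. AARS2 in SCC25 held 572, 555 and 606 with DMSO and 252, 241 and 292 with squamocin. Its log2 fold changes were -0.37 (SE 0.11, adjusted p = 0.0198) and -1.14 (SE 0.086, adjusted p = 8.55e-08).

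LARS2 completed the 4 mitochondrial members lower in both lines, beside 18.6% of genes. LARS2, for mitochondrial leucine, held 783, 841 and 854 with DMSO and 653, 701 and 483 with squamocin in SCC15. LARS2 in SCC25 held 334, 339 and 360.3 with DMSO and 289.8, 225 and 239.8 with squamocin. The log2 fold changes were -0.45 (SE 0.145, adjusted p = 0.0295) and -0.46 (SE 0.10, adjusted p = 0.00119). NARS2, for mitochondrial asparagine, was the single mitochondrial member called in opposite directions. It held 359, 393 and 377 with DMSO and 262, 307 and 319.8 with squamocin in SCC15. NARS2 in SCC25 held 870.4, 923 and 897 with DMSO and 1227, 1145 and 1195 with squamocin. Its log2 fold changes were -0.35 (SE 0.11, adjusted p = 0.0275) and 0.41 (SE 0.053, adjusted p = 1.59e-05), both still called with equal totals. The SCC15 calls of LARS2, NARS2 and CARS2 (-0.29) were lost without any single DMSO library, and that of AARS2 without DMSO replicate 2 or 3, with adjusted p of 0.0546 to 0.104. Calls were also lost for AARS2 (adjusted p = 0.0506) and CARS2 (adjusted p = 0.0629) without squamocin replicate 2, and for NARS2 (adjusted p = 0.0705) without squamocin replicate 1.

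SARS2, for mitochondrial serine, was the least abundant synthetase per length in the DMSO libraries. It held 96.7, 105.2 and 86.7 with DMSO and 20.3, 29.1 and 41.1 with squamocin in SCC25, a log2 fold change of -1.69 (SE 0.24, adjusted p = 3.1e-05). In SCC15 SARS2 held 48.6, 25.3 and 30.6 with DMSO and 46.4, 44.5 and 27.4 with squamocin. These libraries overlapped and the call was not made (0.19, SE 0.32, adjusted p = 0.626, and -0.29 with equal totals). SARS2 shares 48.2% of its exonic bases with another gene on the same strand (ENSG00000269547), so its counts are uncertain. EARS2 (glutamate, -0.81), VARS2 (valine, -0.61), FARS2 (phenylalanine, -0.48) and IARS2 (isoleucine, -0.39) were likewise lower in SCC25 and not called in SCC15. VARS2 shares 63.0% of its exonic bases with a noncoding RNA gene on the same strand (ENSG00000288473). That gene is not listed in the deposited tables, and its reads may be counted as VARS2. With equal totals EARS2 (-0.65), VARS2 (-0.62) and IARS2 (-0.64) were called lower in SCC15, and without squamocin replicate 2 FARS2 was called higher there (0.56, adjusted p = 0.0225). TARS2, for mitochondrial threonine, held 945, 926 and 879.9 with DMSO and 780.4, 805 and 804 with squamocin in SCC25, a small fall (-0.20, SE 0.055, adjusted p = 0.00489). In SCC15 TARS2 held 831, 750.3 and 832 with DMSO and 731, 685 and 784 with squamocin, and was not called (-0.13). Without squamocin replicate 3, IARS2 (-0.27, adjusted p = 2.34e-05) and TARS2 (-0.18, adjusted p = 0.0171) were called lower in SCC15 too.

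The mitochondrial members called higher in SCC15 besides HARS2 were WARS2 and RARS2, whose direction turned with equal totals. WARS2, for mitochondrial tryptophan, held 189, 185 and 170.2 with DMSO and 234, 242 and 274 with squamocin in SCC15, a log2 fold change of 0.46 (SE 0.11, adjusted p = 0.0101). WARS2 in SCC25 held 411, 400.3 and 409.8 with DMSO and 393, 387 and 361 with squamocin, and was not called (-0.099). RARS2, for mitochondrial arginine, held 429, 442 and 422 with DMSO and 538, 528 and 559.9 with squamocin in SCC15 (0.33, SE 0.084, adjusted p = 0.0113). RARS2 in SCC25 held 648, 647 and 630.2 with DMSO and 733, 680.1 and 662 with squamocin, and was not called (0.11, and -0.10 with equal totals). With equal totals the SCC15 values of WARS2 and RARS2 were -0.037 and -0.17, and without DMSO replicate 3 the adjusted p were 0.0504 and 0.0585. YARS2, for mitochondrial tyrosine, was called in 0 lines (0.26 and 0.021, and -0.24 and -0.19 with equal totals, where SCC25 was called).

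The balance between compartments was measured per amino acid as the log2 ratio of the cytosolic to the mitochondrial transcript in each library, with 1 added to each normalized count. Apart from this added 1, the scaling of libraries does not change the ratio. EPRS enters 2 of the 16 pairs, against EARS2 and PARS2. For phenylalanine only the subunit FARSA was paired with FARS2, and FARSB was not. In SCC15 the ratio was higher in every squamocin library than in every DMSO library for 12 pairs, lower for 3 and overlapping for 1, with a median change of 0.87 on the log2 scale (range -1.04 to 2.95). In SCC25 it was higher for 11 pairs, lower for 3 and overlapping for 2, with a median change of 0.55 (range -1.29 to 2.75). In 10 pairs it was higher in both lines. HARS/HARS2 was the 1 pair lower in both. Single genes without overlap were common, at 35.7% above and 34.9% below DMSO in SCC15 and 39.4% and 39.6% in SCC25. The share over other pairs of genes was not computed, so separation alone does not set these pairs apart. An exact permutation test of 3 libraries against 3, two-sided, can reach no lower than p = 0.1, which pairs without overlap had (0.11 after Benjamini-Hochberg adjustment over the 32 ratios).

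The alanine ratio AARS/AARS2 rose in both lines. It was 4.29, 4.07 and 4.20 with DMSO and 6.24, 6.26 and 6.31 with squamocin in SCC15, and 3.56, 3.62 and 3.48 against 5.45, 5.44 and 5.40 in SCC25. The changes of 2.08 and 1.88 were close in size although AARS rose more in SCC15 and AARS2 fell more in SCC25. EPRS/PARS2 changed most, by 2.95 in SCC15 and 2.75 in SCC25. MARS/MARS2 changed by 2.54 and 0.74, and SARS/SARS2 by 1.10 and 2.09. The pairs that changed in opposite directions were WARS/WARS2 (-1.04 in SCC15 and 0.52 in SCC25) and NARS/NARS2 (0.78 and -0.42). FARSA/FARS2 fell in SCC25 (-1.29) and overlapped in SCC15 (-0.44). The fall in SCC25 depends on the subunit chosen, since FARSB changed less there (-0.094) than FARS2 did (-0.48).

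**Figure D5:**
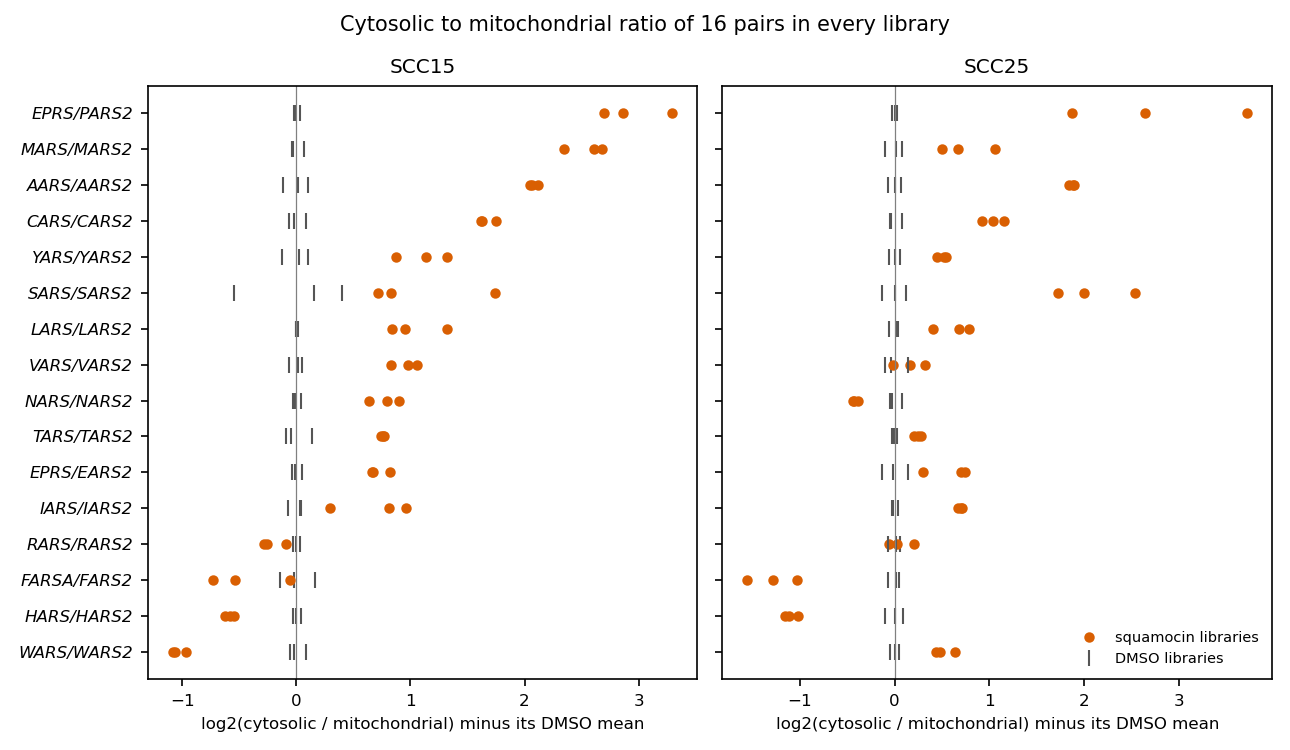
Log2 ratio of cytosolic to mitochondrial normalized counts for 16 pairs, relative to the DMSO mean of the pair, in SCC15 (left) and SCC25 (right). Orange points are squamocin libraries and grey ticks are DMSO libraries. Most pairs shift to the right in both panels, with EPRS/PARS2 furthest and HARS/HARS2 to the left in both.

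Members of the multi-synthetase complex were compared with the other cytosolic members. Its 8 enzyme genes (DARS, EPRS, IARS, KARS, LARS, MARS, QARS and RARS) gave 7 calls higher and 0 lower in SCC15, and in SCC25 5 and 3, beside 30.9% and 30.0% of all genes in SCC15 and 38.3% and 38.5% in SCC25. With equal totals SCC15 had 2 higher and 1 lower, beside 14.8% and 50.5% of all genes. SCC25 had 1 higher and 3 lower on that scale, beside 30.4% and 47.4%. The 12 outside the complex gave 8 higher and 1 lower in SCC15, and in SCC25 6 and 3. With equal totals they gave 6 and 4 in SCC15 and 6 and 6 in SCC25, beside the same shares of that scale. The medians in SCC15 were 0.58 inside and 0.73 outside the complex. The 6 cytosolic members with log2 fold changes above 1 in SCC15 were AARS, GARS, CARS, YARS, SARS and MARS, of which MARS belongs to the complex. The scaffold genes went different ways. AIMP1 was called higher (0.66 in SCC15, 0.22 in SCC25) on the authors' scale but not with equal totals (0.17 and 0.016), AIMP2 fell in both lines (-1.06, adjusted p = 5.07e-04, and -1.27, adjusted p = 8.48e-08), and EEF1E1 rose in SCC25 (1.77, adjusted p = 1.18e-09) with 0.77 in SCC15 (adjusted p = 0.0583).

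Whether a member responded differently in the 2 lines was tested directly, as the difference of the log2 fold changes (SCC15 minus SCC25). This difference was above 0 for 15 cytosolic members, below 0 for 1 and not called for 4, beside 26.1% of all 14454 genes above and 26.0% below. Of the mitochondrial members 6 were above 0, 3 below and 7 not called. QARS (1.80, SE 0.13), FARSA (1.69, SE 0.15) and VARS (1.28, SE 0.094) had the largest cytosolic differences above 0, and WARS (-1.0, SE 0.12) the 1 below. SARS2 (1.88, SE 0.43) and MARS2 (-1.09, SE 0.18) had the largest mitochondrial differences. The response of PARS2, the lowest in both lines, had a difference of 0.58 (SE 0.47, adjusted p = 0.317), which was not called. The median difference was 0.65 over the cytosolic and 0.24 over the mitochondrial members, beside 0.012 over all genes, and with equal totals the median over all genes was -0.27.

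Genes that work beside the synthetases are given from lists chosen by function, to be read beside the 30.9% of all genes called higher and 30.0% lower in SCC15 and the 38.3% and 38.5% in SCC25. In the list of genes that sense uncharged tRNA and of their effectors, 6 of 10 were higher and 0 lower in SCC15, and 6 were higher and 3 lower in SCC25. With equal totals SCC15 had 5 higher and 3 lower (EIF2AK4, IMPACT and EIF2S1), beside 14.8% and 50.5% of all genes on that scale. SCC25 had 5 and 4 there, beside 30.4% and 47.4%. ATF4 rose by a log2 fold change of 2.25 (SE 0.14, adjusted p = 3.21e-05) in SCC15 and 0.91 (SE 0.040, adjusted p = 5.39e-10) in SCC25. ASNS, the asparagine synthetase gene that ATF4 is known to induce, rose by 3.76 and 3.40, and TRIB3, a pseudokinase gene of the same response, by 3.09 and 1.78. CHAC1, another effector of the list, rose less in SCC15 (0.67, adjusted p = 0.00476), and was not called there with equal totals (0.18). In SCC25 CHAC1 was not called (-0.19, adjusted p = 0.0911), and with equal totals it was called lower (-0.40, adjusted p = 0.00228). GCN1, a cofactor of the sensor kinase GCN2, fell in SCC25 (-0.83, adjusted p = 2.55e-07), as did EIF2AK4, the gene of that kinase (-0.29, adjusted p = 3.58e-04), and neither was called in SCC15.

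Genes of other routes of mitochondrial charging were lower or not called. Of QRSL1, GATB, GATC and MTFMT, 0 were higher and 2 lower in each line. MTFMT, which formylates the methionine of the initiator tRNA, fell by -0.57 and -0.61 on the log2 scale. GATB, a subunit of the enzyme that makes glutaminyl-tRNA in mitochondria, fell in SCC25 (-0.84, adjusted p = 2.06e-06) and was at 0.028 in SCC15. With equal totals GATB was called lower in SCC15 too (-0.47, adjusted p = 0.0162). PSTK and SEPSECS, which make selenocysteinyl-tRNA, were both higher in SCC25 (0.78 and 0.56), and PSTK in SCC15 (0.46, adjusted p = 0.0213, and -0.034 with equal totals). SEPSECS was not called in SCC15 (-0.10), and with equal totals it was called lower there (-0.60, adjusted p = 0.00288).

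Among the genes of elongation factors of translation, EEF2 and EEF1D were called in opposite directions in the 2 cell lines on the authors' scale. All 4 tested cytosolic genes were higher in SCC15, with EEF1A1 at 1.59 (adjusted p = 5.14e-04) and EEF2 at 1.46 (adjusted p = 7.91e-05), and EEF1D at 0.38 turned to -0.12 with equal totals. In SCC25, 2 were higher and 2 lower, with EEF2 at -0.89 (adjusted p = 1.14e-08) and EEF1A1 at 0.11 (and -0.097 with equal totals). Of the 4 mitochondrial factors, TUFM was higher in SCC15 (0.90, adjusted p = 0.00156) and 3 were lower in SCC25. Of 10 genes of tRNA maturation and export, 1 was higher and 5 lower in SCC15, and 2 were higher and 6 lower in SCC25, beside the shares of all genes given with the first list. XPOT, the exportin of mature tRNA, rose in both lines by 1.23 (adjusted p = 8.79e-05) and 1.22 (adjusted p = 4.18e-11), and POP1, a subunit of RNase P, fell by -2.35 (adjusted p = 2.93e-05) and -0.78 (adjusted p = 1.86e-05) on the log2 scale. Of the synthetase relatives and editing factors AARSD1, TARSL2, DTD1 and PTRH2, SCC15 had 1 higher and 0 lower and SCC25 had 2 and 1, with DTD1 higher in both (0.75, which was 0.25 and not called with equal totals, and 0.90).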

How the data were processed

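RNA of 12 libraries, 3 for each treatment and cell line, was sequenced. Per the submitters' processing notes the authors aligned reads to GRCh38 with HISAT2 2.0.5 and counted them per gene with featureCounts 1.5.0-p3, and the annotation release was not given in the sources used here. The deposited signal values are read counts divided by a size factor per library, set by the authors within each cell line. The column headers of SCC25 name FPKM, but division by a single step per library gave whole reads for 100% of values in every library (tolerance 0.01 reads), which FPKM would not. The tables were scaled separately, so levels were not tested across cell lines. The deposited tables also hold the authors' own fold changes and p-values, which were not used.

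Genes with a mean of at least 10 normalized counts were tested within a cell line with limma 3.58.1 (R 4.3.3) on log2(normalized count + 1), with a trend in the variance, two-sided, and Benjamini-Hochberg adjustment over all genes tested. All 36 members passed this filter in both lines. A gene was called at an adjusted p under 0.05. The difference between cell lines was a contrast of the 4 group means over genes tested in both. Fold changes are on the log2(count + 1) scale and understate changes of low genes. Levels per length used the recovered reads and the length of the canonical transcript.

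edgeR 4.0.16 and DESeq2 1.42.0 were run on the recovered reads as alternatives, besides other pseudocounts, filters and scalings, the replicate number as a block, and each library left out. In SCC15 edgeR called 5074 genes higher and 4757 lower, and in SCC25 the counts were 6413 and 6384. The fits were also run on simulated counts with known changes in a small part of the genes. That simulation held neither the shift between scalings nor a deviating library such as squamocin replicate 3 of SCC15, so it does not bear on them. Values in every library are given for the 3 highest and 3 lowest called members per line and class, for members called in opposite directions, for HARS, HARS2, WARS and WARS2, and for KARS, GARS and QARS. The members and lists were chosen with earlier results of these data known. Some genes of the lists are not reported here.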

Additional observations from a re-analysis of the deposited data

Results flagged for a closer look

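In the test of the difference itself, the response to squamocin differed between SCC15 and SCC25 for 25 of the 36 synthetases by limma at an adjusted p under 0.05, beside 26.1% of all genes above 0 and 26.0% below. The values are log2 fold changes in SCC15 minus those in SCC25. Among the cytosolic members the difference was above 0 for QARS (1.80), FARSA (1.69), VARS (1.28), AARS (0.98), SARS (0.89), KARS (0.88), YARS (0.84), EPRS (0.79), GARS (0.76), MARS (0.71), TARS (0.59), NARS (0.44), LARS (0.42), HARS (0.34) and CARS (0.31), and below 0 for WARS (-1.0). Among the mitochondrial members it was above 0 for SARS2 (1.88), FARS2 (0.84), AARS2 (0.77), EARS2 (0.65), WARS2 (0.56) and VARS2 (0.48), and below 0 for MARS2 (-1.09), NARS2 (-0.76) and CARS2 (-0.31).

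Scaling every library to the same total moved the median difference of all genes to -0.27. On that scale the differences of CARS (0.023), HARS (0.051), LARS (0.13), NARS (0.15), EARS2 (0.36), VARS2 (0.19) and WARS2 (0.27) were no longer called. Those of RARS (-0.34), FARSB (-0.30) and HARS2 (-0.46) became called below 0 there. Leaving out a single library ended the call of CARS (without DMSO replicate 1 of SCC15, or DMSO replicate 1, DMSO replicate 2 or squamocin replicate 2 of SCC25, adjusted p of 0.0521 to 0.0645) and of CARS2 (without DMSO replicate 1 or 3 or squamocin replicate 2 of SCC15, or DMSO replicate 3 or squamocin replicate 1 of SCC25, adjusted p of 0.0597 to 0.0833). Without squamocin replicate 3 of SCC15, IARS (0.32) and HARS2 (-0.23) were called as well. Groups held 3 libraries, so single libraries were not tested as outliers.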

How the results depend on the processing

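Changing the pseudocount to 0.1 or 10, or testing with edgeR or DESeq2, left the direction and the call of the 36 members as they were within each cell line, and DESeq2 added IARS (0.24) to the differences between lines. A minimum of 10 in every library removed PARS2 in SCC25. The scaling mattered most. With equal library totals SCC15 had 8 cytosolic members higher and 5 lower (median 0.092) and 0 mitochondrial members higher and 10 lower (median -0.64). On that scale 14.8% of all genes were higher and 50.5% lower. In SCC25 this scaling gave 7 cytosolic members higher (median -0.057, the reverse of the sign on the authors' scale), beside 30.4% of all genes. The mitochondrial median there was -0.63. In the test of the difference this scaling gave 11 cytosolic members above 0 and 3 below. Of the mitochondrial members 3 were above 0 and 4 below, beside 16.6% of all genes above and 37.7% below. The direction turned for DARS (-0.14), NARS (-0.068), RARS (-0.38), FARS2 (-0.13), RARS2 (-0.17), SARS2 (-0.29), WARS2 (-0.037) and YARS2 (-0.24) in SCC15, and for DARS (-0.070), LARS (-0.042), RARS (-0.045), TARS (-0.17), CARS2 (-0.18), RARS2 (-0.10) and YARS2 (-0.19) in SCC25. TMM factors moved the SCC15 medians to 0.55 and -0.18 and ended the difference of CARS (0.28, adjusted p = 0.0606), and no filter on low values ended that of CARS2 (adjusted p = 0.0549). The mean in place of the median gave a distance between classes of 0.89 in SCC15.

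Leaving out 1 library at a time gave 14 to 15 cytosolic members higher and 1 to 4 lower in SCC15 (medians 0.57 to 0.61), and 9 to 11 higher and 6 lower in SCC25 (medians 0.13 to 0.16). It gave 1 to 4 mitochondrial members higher and 2 to 8 lower in SCC15 (medians -0.16 to -0.11), and 2 to 3 higher and 10 lower in SCC25 (medians -0.46 to -0.37). In the test of the difference 14 to 16 cytosolic members were above 0 and 1 below, and 6 to 7 mitochondrial members were above and 2 to 4 below. Over the same fits 24.8% to 38% of all genes were called higher and 22.8% to 37.6% lower in SCC15. In SCC25 the shares were 36.7% to 38.9% and 35.1% to 39.8%. In the difference 23.4% to 32.5% of all genes were above 0 and 23.6% to 33.4% below. The distance between classes was 0.75 to 0.81 in SCC15 and 0.45 to 0.53 in SCC25.

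Same-numbered libraries did not deviate together (6 correlations from -0.0511 to 0.0078), so the replicate numbers were not taken to pair libraries. With the replicate block CARS2 (-0.29, adjusted p = 0.0623) and NARS2 (-0.35, adjusted p = 0.0507) lost their calls in SCC15, and CARS (0.31, adjusted p = 0.0679) and CARS2 (-0.31, adjusted p = 0.0561) theirs in the difference. The causes of these changes were not tested. Depth limits PARS2 and SARS2 most, since PARS2 had as few as 6 reads in a library.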
